A study of Mus musculus with 6 samples.

Results

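Transcripts of the epithelial sodium channel and of the aldosterone response were examined in bulk RNA of the descending colon of Muc2-/- and wild-type mice aged 12 weeks. The set holds 10 genes, taken by gene name with earlier results of these data known, out of 55849 genes in the deposited tables. It comprises the channel subunits Scnn1a, Scnn1b and Scnn1g, the mineralocorticoid receptor Nr3c2, the enzyme Hsd11b2, the channel regulators Sgk1, Nedd4l and Prss8, the steroid-induced transcript Tsc22d3 and the sodium pump subunit Atp1b1. All 10 had enough counts to be tested, among 16107 tested genes.

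The groups were 3 libraries of Muc2-/- mice, in which the gene of the main mucin secreted by colonic goblet cells is mutated, and 3 libraries of wild-type C57BL/6 mice. Neither group had been treated. Titles name crypts whereas protocols name colon tissue, and the labels give no sex, batch, hour of collection, diet or description of the mutated allele. Replicates carry a number but no animal, so a p-value here reflects only how these libraries scatter, which may be in part technical. Polyadenylated RNA was sequenced as paired Illumina reads, and the total count per library lay between 16627761 and 17465636 in Muc2-/- and between 16395432 and 20336459 in wild-type.

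The epithelial sodium channel is a pore of 3 homologous subunits in the apical membrane of the surface cells of the distal colon, where it takes up sodium that the sodium pump then passes to the blood side. Aldosterone acts through the mineralocorticoid receptor, and in rodent distal colon it is known to raise the beta and gamma subunit transcripts more than the alpha transcript. The receptor also binds corticosterone, which the enzyme encoded by Hsd11b2 inactivates in aldosterone target cells. Sgk1 encodes a steroid-induced kinase that phosphorylates the ubiquitin ligase Nedd4-2, the product of Nedd4l, and so slows the removal of the channel from the membrane. Prss8 encodes prostasin, a membrane-anchored protease that takes part in channel cleavage and opening.

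The libraries were not alike within a group, and this touches every value below. Wild-type 3 differed from wild-type 1 and 2 in several of the 10 genes. The summed level of 10 smooth muscle markers, in CPM (counts scaled by library size and TMM factors), was 2644 to 4788 in Muc2-/- and 6315 to 22364 in wild-type, where wild-type 3 was the lowest. That of 8 general epithelial markers, among them Epcam and Cdh1, was 22411 to 38003 CPM in Muc2-/- and 9725 to 18824 CPM in wild-type, where wild-type 3 was the highest. All 8 epithelial markers had counts in every library, whereas Slc12a1 and Aqp2 of the 6 kidney tubule markers were at 0 in every library. Muc2 itself was counted in every library, at 757 to 1021 CPM in Muc2-/- and 2480 to 6977 CPM in wild-type, with a log2 fold change of -2.15 (SE 0.47, edgeR adjusted p = 0.103, DESeq2 3.27e-05). The position of the mutation is not given, so these counts do not check the genotype. In bulk RNA, fewer cells of a type and less RNA per cell cannot be told apart.

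With the quasi-likelihood test of edgeR and Benjamini-Hochberg adjustment over all 16107 genes, 0 of the 10 genes were higher and 0 lower in Muc2-/- at a threshold of 0.05, where 0.124% of all tested genes passed (0.106% higher and 0.0186% lower). DESeq2 also called 0 of the 10, where it called 9.82% of all genes with an adjusted p (3.23% higher and 6.59% lower). At an unadjusted p under 0.05 edgeR had 2 of the 10, Scnn1g and Hsd11b2, both above wild-type, where 21% of all tested genes passed, 8.23% higher and 12.7% lower. These were also the 2 genes whose groups did not overlap, where 28.5% of all tested genes had groups that did not overlap, 13.3% higher and 15.2% lower. The median log2 fold change was 0.38 over the 10 genes, with 7 of them above 0, and -0.01 over all tested genes.

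**Figure D1:**
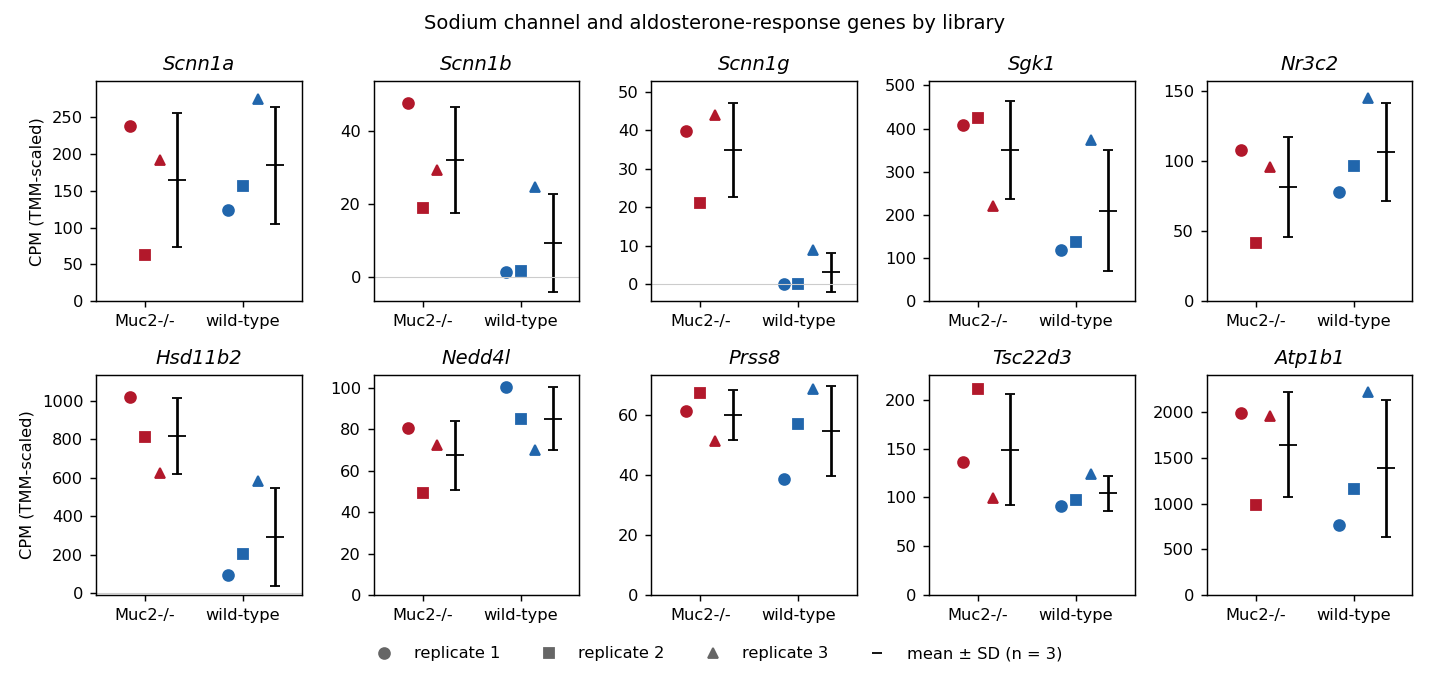
TMM-scaled CPM of the 10 genes in each library, with Muc2-/- in red and wild-type in blue, a symbol for each replicate number, and a black bar for the mean ± SD (n = 3). Scnn1g and Hsd11b2 do not overlap between the groups, and wild-type 3 (blue triangle) is the highest wild-type library in 9 of the 10 panels, all but Nedd4l.

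The beta and gamma subunits had the largest fold changes of the 10 genes, and the alpha subunit did not share them. Scnn1g (chromosome 7, plus strand, 121333702 to 121367698 as the count table numbers it) had 39.8, 21.0 and 43.9 CPM in Muc2-/- 1, 2 and 3, against 0.0554, 0.104 and 8.87 CPM in wild-type 1, 2 and 3. The wild-type 1 and 2 values rest on 1 and 2 counts, and wild-type 3 had 186. Every Muc2-/- library was thus above every wild-type library, and wild-type 3 stood between the other wild-type libraries and Muc2-/-. The log2 fold change was 3.52 (SE 1.33, edgeR adjusted p = 0.190).

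Summed over libraries, Scnn1g had 1697 counts in Muc2-/- and 3 in wild-type 1 and 2, a scaled ratio of 438 with a 95% interval of 150 to 2127. Against wild-type 3 alone the ratio was 3.98 (interval 3.42 to 4.65). These exact intervals cover counting error only and not the spread between mice. Without wild-type 3 the adjusted p was 0.0116 (edgeR log2 fold change 8.64, which depends on the prior count because the remaining wild-type libraries hold 3 counts). When any other single library was left out, the log2 fold change of Scnn1g lay between 2.94 and 3.77 and did not pass.

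Scnn1b lies beside Scnn1g on the same strand of chromosome 7 (121464261 to 121517737), 96562 bases beyond its end. It had 47.8, 19.0 and 29.5 CPM in Muc2-/- 1, 2 and 3, against 1.61, 1.82 and 24.9 CPM in wild-type 1, 2 and 3. Here wild-type 3 lay within the range of Muc2-/-, and the groups overlapped. The means were 32.1 ± 14.6 CPM in Muc2-/- and 9.44 ± 13.4 CPM in wild-type (SD, n = 3 each), with a log2 fold change of 1.76 (SE 0.98, edgeR adjusted p = 0.348). Without wild-type 3 the log2 fold change was 4.23 and the adjusted p 0.0148.

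Scnn1a, the alpha subunit gene on chromosome 6, was abundant in every library. It had 237, 62.8 and 192 CPM in Muc2-/- 1, 2 and 3, against 123, 156 and 274 CPM in wild-type 1, 2 and 3. The groups overlapped in part, with Muc2-/- 2 below every wild-type library and wild-type 3 above every Muc2-/- library. The log2 fold change was -0.17 (SE 0.49, edgeR adjusted p = 0.876), and its sign was the opposite without Muc2-/- 2 (0.23) or without wild-type 3 (0.24).

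The promoter windows of Scnn1g and Scnn1b are shown because these neighbouring genes had closely similar profiles (Pearson r = 0.98 of log2 CPM over the same 6 libraries, a description). That of Sgk1 is shown because it carries the full palindrome of the steroid response element. The windows run from 250 bases before to 50 after a RefSeq start site in build GRCm38.p6, a different assembly from that of the count table. Capitals mark matches, on either strand, to the steroid response arm TGTTCT, to the palindrome of that arm and its reverse complement with NNN between them, to the TATA box TATAAA and the GC box GGGCGG.
Scnn1g, chr7:121734229-121734528, plus strand: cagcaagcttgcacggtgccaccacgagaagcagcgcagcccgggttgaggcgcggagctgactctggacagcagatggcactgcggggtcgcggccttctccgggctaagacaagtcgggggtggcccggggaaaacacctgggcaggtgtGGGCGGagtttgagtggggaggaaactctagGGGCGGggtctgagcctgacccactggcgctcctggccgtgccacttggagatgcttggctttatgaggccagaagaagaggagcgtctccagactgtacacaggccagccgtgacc
Scnn1b, chr7:121864788-121865087, plus strand: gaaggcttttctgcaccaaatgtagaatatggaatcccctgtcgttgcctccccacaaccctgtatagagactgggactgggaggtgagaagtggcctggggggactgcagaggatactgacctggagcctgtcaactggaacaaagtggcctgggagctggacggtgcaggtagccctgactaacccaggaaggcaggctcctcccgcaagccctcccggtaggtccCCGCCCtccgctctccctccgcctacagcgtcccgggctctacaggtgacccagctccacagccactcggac
Sgk1, chr10:21993640-21993939, plus strand: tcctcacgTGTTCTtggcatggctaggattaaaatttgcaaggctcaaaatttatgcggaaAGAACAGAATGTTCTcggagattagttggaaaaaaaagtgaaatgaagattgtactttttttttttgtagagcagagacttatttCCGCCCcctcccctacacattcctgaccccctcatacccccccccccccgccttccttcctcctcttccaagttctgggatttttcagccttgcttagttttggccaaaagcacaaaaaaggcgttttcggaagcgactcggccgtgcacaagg

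In the Scnn1g window the capitals are 2 GC boxes, at -98 and -67 from the start site, and in the Scnn1b window 1 GC box on the minus strand at -22. Neither window holds the palindrome, its arm or the TATA box. The Sgk1 window, 1 of 6 that RefSeq lists for this gene, holds the palindrome at -189, and both arms of the palindrome are counted among its 3 arm matches. The palindrome was in 3 of the 32851 promoter windows of the table (0.00913%), the arm in 19.0%, the TATA box in 13.6% and the GC box in 35.7%. Promoter windows were matched for 6 of the 10 genes by symbol. The counts do not say which start site was used, and a match of letters is a description and not a binding site.

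Per length, the subunit transcripts stood in unequal amounts, and the inequality was larger in wild-type. On the scale of deposited FPKM (fragments scaled by gene length and library size), the level of Scnn1b as a ratio to that of Scnn1a was 0.316, 0.476 and 0.241 in Muc2-/- 1, 2 and 3, against 0.0204, 0.0184 and 0.143 in wild-type 1, 2 and 3. The FPKM ratio of Scnn1g to Scnn1a was 0.232, 0.462 and 0.316 in Muc2-/- 1, 2 and 3, and in wild-type 3 it was 0.0447. In wild-type 1 and 2 it was 0.00062 and 0.000924, values that rest on 1 and 2 counts of Scnn1g. The ratio of Scnn1b to Scnn1g in FPKM was near equality in Muc2-/- (1.37, 1.03 and 0.762), against 32.9, 19.9 and 3.19 in wild-type 1, 2 and 3.

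Ratios within a library depend little on how libraries are scaled, and 7 were compared between the groups with a two-sided exact permutation test of 20 arrangements, which cannot give a p below 0.1 with 3 libraries a group. The log2 ratio of Scnn1b to Scnn1a in CPM averaged -2.24 ± 0.49 in Muc2-/- and -5.32 ± 1.62 in wild-type (SD, n = 3 each; difference 3.08, exact permutation p = 0.1, 0.175 after Benjamini-Hochberg adjustment over the 7). That of Scnn1g to Scnn1a averaged -2.09 ± 0.50 in Muc2-/- and -7.98 ± 2.64 in wild-type (exact permutation p = 0.1, adjusted 0.175, n = 3 each), a difference of 5.89 that became 6.46 with a prior count of 0.5 in place of 2. Both ratios, and that of Scnn1b to Scnn1g, did not overlap between the groups, wild-type 3 included. The log2 ratio of Scnn1b to Scnn1g is the difference of the other log2 ratios, so it is not a separate result. The share of other gene pairs without overlap was not computed for any ratio here.

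**Figure D2:**
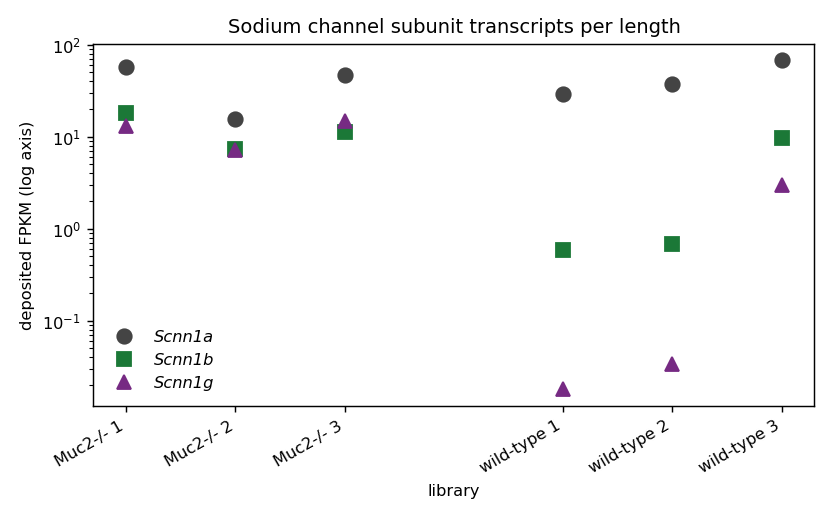
Deposited FPKM of the 3 channel subunits in each library, on a log axis. Scnn1a stays between 15.5 and 67.4 FPKM in all 6 libraries, whereas Scnn1g is at 7.16 to 14.7 FPKM in Muc2-/-, 3.01 in wild-type 3, and 0.018 and 0.034 in wild-type 1 and 2.

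The groups did not overlap for the enzyme gene Hsd11b2, whereas they overlapped for the receptor gene Nr3c2. Hsd11b2 (chromosome 8, plus strand, 106245387 to 106250620) had 1020, 810 and 625 CPM in Muc2-/- 1, 2 and 3, against 97.9, 204 and 581 CPM in wild-type 1, 2 and 3. All 3 Muc2-/- libraries were above all wild-type libraries, though Muc2-/- 3 and wild-type 3 lay close together. The means were 818 ± 198 CPM in Muc2-/- and 294 ± 254 CPM in wild-type (SD, n = 3 each), 2.78-fold apart, with a log2 fold change of 1.47 (SE 0.59). The adjusted p was 0.212 in edgeR and 0.0553 in DESeq2, and 0.0220 in edgeR without wild-type 3 (log2 fold change 2.45).

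Nr3c2, the mineralocorticoid receptor gene, had 108, 41.4 and 95.6 CPM in Muc2-/- 1, 2 and 3, against 78.0, 96.3 and 145 CPM in wild-type 1, 2 and 3. The groups overlapped, with Muc2-/- 2 below all other libraries (log2 fold change -0.38, SE 0.38, edgeR adjusted p = 0.60). The log2 ratio of Hsd11b2 to Nr3c2 in CPM averaged 3.41 ± 0.80 in Muc2-/- and 1.14 ± 0.84 in wild-type, with no overlap (exact permutation p = 0.1, adjusted 0.175, n = 3 each). The glucocorticoid receptor gene Nr3c1 had 70.9 ± 16.7 CPM in Muc2-/- and 74.0 ± 4.73 CPM in wild-type, and the log2 ratio of Nr3c2 to Nr3c1 overlapped between the groups (difference -0.36, exact permutation p = 0.5, adjusted 0.583, n = 3 each).

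Among the regulators of the channel protein, Sgk1 passed the threshold only in the fit without wild-type 3, and Nedd4l and Prss8 did not pass in any fit that was run. Sgk1 on chromosome 10 had 408, 425 and 221 CPM in Muc2-/- 1, 2 and 3, against 119, 138 and 373 CPM in wild-type 1, 2 and 3. Wild-type 3 was above Muc2-/- 3, so the groups overlapped (log2 fold change 0.74, SE 0.47, edgeR adjusted p = 0.405). Without wild-type 3 the log2 fold change was 1.45 and the adjusted p 0.0498, just under the threshold.

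Nedd4l, whose product marks the channel for removal, had 80.9, 49.1 and 72.3 CPM in Muc2-/- 1, 2 and 3, against 100.4, 85.2 and 70.0 CPM in wild-type 1, 2 and 3. Wild-type 3 was the lowest wild-type library here, and the groups overlapped at wild-type 3 (log2 fold change -0.34, SE 0.24, edgeR adjusted p = 0.457). The log2 ratio of Sgk1 to Nedd4l in CPM averaged 2.35 ± 0.75 in Muc2-/- and 1.12 ± 1.14 in wild-type and overlapped (exact permutation p = 0.3, adjusted 0.42, n = 3 each). Prss8 had 61.4, 67.5 and 51.2 CPM in Muc2-/- 1, 2 and 3, against 38.6, 56.9 and 68.5 CPM in wild-type 1, 2 and 3. Its log2 fold change was 0.13 (SE 0.24, edgeR adjusted p = 0.793), and its sign turned to -0.05 without composition factors, which moved the median of all genes to -0.20.

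Tsc22d3, which encodes the steroid-induced leucine zipper protein GILZ, had 137, 211 and 99.1 CPM in Muc2-/- 1, 2 and 3, against 91.0, 96.9 and 124 CPM in wild-type 1, 2 and 3. Muc2-/- 2 was the highest library and the groups overlapped (log2 fold change 0.52, SE 0.29, edgeR adjusted p = 0.356). Lymphocytes are known to express this gene too. The summed level of 8 leukocyte markers was 149 to 507 CPM in Muc2-/- and 107 to 354 CPM in wild-type, with Muc2-/- 2 the lowest of its group. Their mean log2 CPM did not overlap, at 4.04, 2.36 and 4.83 in Muc2-/- 1, 2 and 3, against 1.79, 1.17 and 0.84 in wild-type 1, 2 and 3. Of 7 tested leukocyte markers, 6 had positive log2 fold changes (median 0.80), edgeR called 0 and DESeq2 called 3 higher. The part of leukocytes in the Tsc22d3 values was not tested.

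Atp1b1, the sodium pump subunit needed for delivery of the pump to the membrane, was the most abundant of the 10 genes. It had 1993, 980 and 1959 CPM in Muc2-/- 1, 2 and 3, against 772, 1163 and 2224 CPM in wild-type 1, 2 and 3, and the groups overlapped (log2 fold change 0.25, SE 0.46, edgeR adjusted p = 0.801). Muc2-/- 2 was the lowest of its group and wild-type 3 the highest of all 6 libraries.

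**Figure D3:**
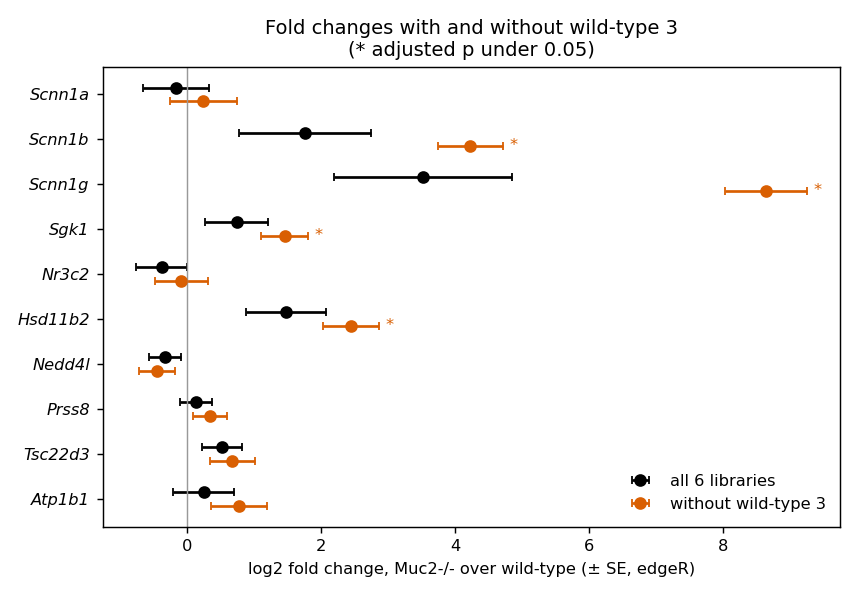
Log2 fold changes of the 10 genes, Muc2-/- over wild-type, with standard errors from edgeR, for all 6 libraries (black) and without wild-type 3 (orange). No black point passes an adjusted p of 0.05, and the 4 starred orange points are Scnn1b, Scnn1g, Sgk1 and Hsd11b2.

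Without wild-type 3, edgeR called 4 of the 10 genes higher, where 7.3% of all tested genes were called in that fit, 1.62% higher and 5.68% lower, and 0 of the 10 lower. Wild-type 3 was the highest wild-type library for each of the 10 genes but Nedd4l, so leaving it out raised their fold changes. The 4 calls thus depend on which library was left out and are a description. No other omission of a single library gave a call among the 10. Scnn1g alone was called with no low-count filter (adjusted p = 0.0379), a fit that called 4.47% of its genes, 1.43% higher and 3.04% lower.

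In order of FPKM, Atp1b1 (535 ± 182) and Hsd11b2 (447 ± 105) led in Muc2-/-, followed by Sgk1 (72.0 ± 23.5), Scnn1a (39.7 ± 21.6), Tsc22d3 (34.6 ± 13.6), Prss8 (32.6 ± 4.71), Nr3c2 (12.6 ± 5.35), Scnn1b (12.2 ± 5.40), Scnn1g (11.7 ± 4.01) and Nedd4l (3.48 ± 0.81). Neighbours in that order overlapped except at the steps to Sgk1, to Nr3c2 and to Nedd4l. In wild-type the order was Atp1b1 (449 ± 255), Hsd11b2 (161 ± 142), Scnn1a (44.5 ± 20.3), Sgk1 (42.9 ± 29.8), Prss8 (29.3 ± 8.74), Tsc22d3 (23.8 ± 4.69), Nr3c2 (16.4 ± 5.75), Nedd4l (4.34 ± 0.68), Scnn1b (3.63 ± 5.18) and Scnn1g (1.02 ± 1.73), and only the step to Nedd4l was free of overlap. The errors are SD over 3 libraries.

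Set against epithelial content, the 10 genes did not share a direction. The log2 CPM of each gene less the mean log2 CPM of the 8 general epithelial markers was taken in each library. For Scnn1g it was -5.53, -6.95 and -5.48 in Muc2-/- 1, 2 and 3, against -12.37, -12.54 and -7.41 in wild-type 1, 2 and 3, a difference of 4.79 with no overlap. Scnn1b (difference 1.98) and Hsd11b2 (1.02) overlapped on this scale, and Sgk1 differed by 0.07. Against 8 surface colonocyte markers in place of these, the differences were 5.54 for Scnn1g, 2.72 for Scnn1b, 1.77 for Hsd11b2 and 0.82 for Sgk1, with an exact permutation p of 0.1, 0.3, 0.2 and 0.3 (n = 3 each, unadjusted). These 8 markers, Slc26a3 and Car4 among them, were mixed, with 5 positive and 3 negative log2 fold changes. Without overlap, 1 of them was higher and 2 were lower in Muc2-/-. The share of all genes without overlap on this scale was not computed.

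On the same scale Nr3c2 (difference -1.26), Nedd4l (-1.16) and Prss8 (-0.64) lay below wild-type in every Muc2-/- library. The exact permutation p was 0.1, the smallest possible, for Scnn1g, Nr3c2, Nedd4l and Prss8, and 0.25 after adjustment over the 10 genes (n = 3 each). Of all tested genes, 56.8% did not overlap, with 55.5% below and 1.22% above wild-type without overlap on this scale, so 3 of 10 below is not a result about these genes. Against the surface colonocyte markers the separation of all 3 was lost, with differences of -0.51 for Nr3c2, -0.41 for Nedd4l and 0.11 for Prss8 (exact permutation p = 0.4, 0.2 and 0.7, n = 3 each, unadjusted). The epithelial markers themselves were higher on average in each Muc2-/- library (10.85, 11.35 and 10.94, against 9.80, 10.34 and 10.58 in wild-type 1, 2 and 3, in mean log2 CPM).

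**Figure D4:**
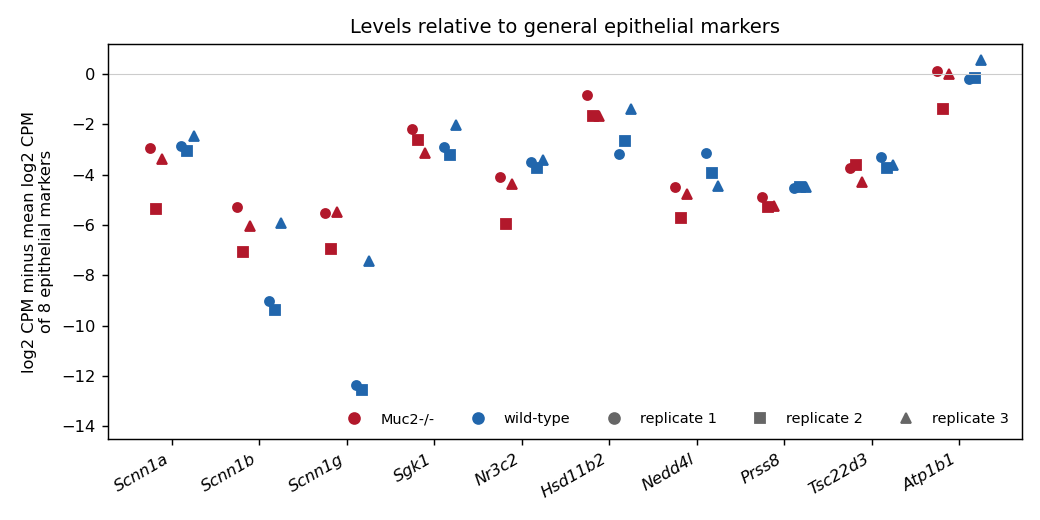
Log2 CPM of each of the 10 genes less the mean log2 CPM of 8 general epithelial markers, by library, with Muc2-/- in red and wild-type in blue. Scnn1g lies above wild-type in every Muc2-/- library, Nr3c2, Nedd4l and Prss8 lie below, and the other 6 genes overlap.

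Genes around the channel were followed in 6 lists with 82 tested genes in all, and edgeR called 0 of them in either direction. At an unadjusted p under 0.05 in edgeR, 8.23% of all tested genes were higher and 12.7% lower. These shares belong beside the counts of each list below. Of all 92 listed genes, some of them not tested in edgeR, DESeq2 called 6 higher and 10 lower. It called 3.23% higher and 6.59% lower of all genes with an adjusted p. The DESeq2 counts of each list below cover only the genes tested in edgeR. Of 30 channel proteases, inhibitors and trafficking regulators (median log2 fold change 0.14), 3 were above and 4 below wild-type at an unadjusted p under 0.05 in edgeR, and DESeq2 called 2 higher and 1 lower. Serpinb1a, a serine protease inhibitor of leukocytes and epithelium, had 916 ± 70.7 CPM in Muc2-/- and 408 ± 169.5 CPM in wild-type (edgeR adjusted p = 0.113, DESeq2 0.00936). Spint2, an inhibitor of membrane-anchored serine proteases, had 2537 ± 1367 CPM in Muc2-/- and 1500 ± 255 CPM in wild-type (edgeR adjusted p = 0.33). Cnksr3, an aldosterone-induced scaffold of the channel regulators, had 13.4 ± 4.44 CPM in Muc2-/- and 26.5 ± 0.980 CPM in wild-type without overlap (log2 fold change -0.98, SE 0.27, edgeR adjusted p = 0.114, DESeq2 0.0293).

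Transcripts known to be induced by corticosteroids did not move one way. Of 16 tested (median log2 fold change -0.10), 4 were above and 6 below wild-type at an unadjusted p under 0.05 in edgeR, and DESeq2 called 3 higher and 2 lower. Cnksr3 and Usp2 belong both to this list and to that of channel regulators, so the counts of these lists are not separate. Cebpd, a transcription factor, had 86.5 ± 8.95 CPM in Muc2-/- and 40.2 ± 10.8 CPM in wild-type (a log2 fold change of 1.11, edgeR adjusted p = 0.101, DESeq2 0.00399). The metallothionein gene Mt1 had 498 ± 479 CPM in Muc2-/- and 132 ± 46.3 CPM in wild-type (edgeR adjusted p = 0.162, DESeq2 0.0126), with Muc2-/- 2 alone at 1048 CPM. Klf9, a Kruppel-like factor, had 74.4 ± 10.8 CPM in Muc2-/- and 123 ± 13.6 CPM in wild-type (a log2 fold change of -0.73, edgeR adjusted p = 0.106, DESeq2 0.0365). Cdkn1a, a cell cycle inhibitor, had 462 ± 111 CPM in Muc2-/- and 321 ± 62.4 CPM in wild-type (edgeR adjusted p = 0.292).

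Fkbp5 and Per1, both named after their values were seen, pointed opposite ways within this list. Fkbp5, a co-chaperone of steroid receptors, had 349 ± 116 CPM in Muc2-/- and 165 ± 46.5 CPM in wild-type. Per1, which is also a clock gene, had 48.9 ± 6.72 CPM in Muc2-/- and 73.8 ± 1.90 CPM in wild-type (edgeR adjusted p 0.122 for Fkbp5 and 0.121 for Per1). The hour of collection is not given in the labels.

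The list of receptors, chaperones and pre-receptor enzymes was the most even. Of 12 tested genes (median log2 fold change 0.03), 0 were past an unadjusted p of 0.05 in edgeR and 0 were called by DESeq2. The chaperone genes Hspa8 (2409 ± 289 CPM in Muc2-/-, 1919 ± 117 CPM in wild-type) and Hsp90ab1 (1297 ± 451 CPM in Muc2-/-, 1149 ± 58.7 CPM in wild-type) and the coactivator gene Ncoa1 (32.7 ± 10.8 CPM in Muc2-/-, 27.3 ± 6.65 CPM in wild-type) had edgeR adjusted p-values of 0.514, 0.783 and 0.659.

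Among 11 tested sodium pump subunits and FXYD proteins, 5 had positive and 6 negative log2 fold changes. The median, -1.02, is the least negative of these 6 and does not describe the list as a whole. It was -0.20 without wild-type 1 and -0.52 without Muc2-/- 3. At an unadjusted p under 0.05 in edgeR 5 were below wild-type, and in DESeq2 5 were lower. Fxyd6 had 22.0 ± 7.14 CPM in Muc2-/- and 90.1 ± 64.5 CPM in wild-type (edgeR adjusted p = 0.106, DESeq2 0.00164). Fxyd1 had 11.5 ± 4.30 CPM in Muc2-/- and 34.7 ± 16.6 CPM in wild-type (edgeR adjusted p = 0.111, DESeq2 0.00762). Both are known from muscle or nerve as well, and in wild-type they had the same order over libraries as the smooth muscle markers, whose part in these values was not tested. The pump subunit gene Atp1b3 had 88.5 ± 28.8 CPM in Muc2-/- and 87.4 ± 13.8 CPM in wild-type.

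Of 7 tested potassium channel and proton-potassium pump genes (median log2 fold change -0.63), 4 were below wild-type at an unadjusted p under 0.05 in edgeR and 2 were called lower by DESeq2. Over all tested genes 12.7% were lower at that edgeR p. Kcnq1, a basolateral potassium channel of crypt cells, had 29.5 ± 5.76 CPM in Muc2-/- and 59.5 ± 14.4 CPM in wild-type (edgeR adjusted p = 0.103, DESeq2 0.0166). Its partner subunit Kcne3 had 137 ± 19.8 CPM in Muc2-/- and 180 ± 30.3 CPM in wild-type (edgeR adjusted p = 0.322). Kcnmb1, a smooth muscle subunit of the large-conductance potassium channel, had 6.66 ± 4.16 CPM in Muc2-/- and 32.0 ± 21.2 CPM in wild-type (edgeR adjusted p = 0.107, DESeq2 0.00138). All 10 smooth muscle markers had negative log2 fold changes (median -1.72), and the part of smooth muscle in the counts of this list was not tested.

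The 8 tested genes of electroneutral sodium absorption all had negative log2 fold changes (median -0.37), of which Slc26a3 was past an unadjusted p of 0.05 in edgeR. Over all 16107 tested genes, 8198 had negative log2 fold changes. Slc26a3, the apical chloride-bicarbonate exchanger, had 727 ± 280.5 CPM in Muc2-/- and 1565 ± 554 CPM in wild-type (a log2 fold change of -1.11, edgeR adjusted p = 0.172, DESeq2 0.0432). Slc9a3, the sodium-proton exchanger, had 389 ± 84.6 CPM in Muc2-/- and 530 ± 158 CPM in wild-type (edgeR adjusted p = 0.416). Carbonic anhydrase Car4 had 1659 ± 577 CPM in Muc2-/- and 1797 ± 191 CPM in wild-type (edgeR adjusted p = 0.871).

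Atp12a and Fxyd4 also differed between wild-type 3 and the other wild-type libraries. Atp12a, the colonic proton-potassium pump, had 950, 211 and 491 CPM in Muc2-/- 1, 2 and 3, against 218, 127 and 1263 CPM in wild-type 1, 2 and 3. Fxyd4, a pump modulator that corticosteroids induce in rat colon, was named after its values were seen. It had 78.2, 16.7 and 18.4 CPM in Muc2-/- 1, 2 and 3, against 1.72, 2.14 and 71.4 CPM in wild-type 1, 2 and 3. Both genes were highest or second highest in wild-type 3 and lower in wild-type 1 and 2 than in Muc2-/- 1 and 3.

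Posterior Hox genes, which mark position along the gut and were added after the values were seen, did not share one order over the wild-type libraries. Their summed level over 16 genes was 603 to 770 CPM in Muc2-/- and 441 to 958 CPM in wild-type, and Hoxc10, Hoxc12 and Hoxc13 were at 0 in all libraries. Of 13 with a count in wild-type, 4 were highest in wild-type 1, 6 in wild-type 2 and 3 in wild-type 3. The 6 include Hoxc9 and Hoxc11, which had 2 and 1 counts in wild-type 2 and 0 in every other library. Hoxb13, the most abundant, had 529, 358 and 343 CPM in Muc2-/- 1, 2 and 3, against 246, 197 and 670 CPM in wild-type 1, 2 and 3. Wild-type 3 was the highest library for Hoxb13, which made up most of its summed level. Hoxa13 had 44.2, 55.8 and 77.5 CPM and Hoxd13 39.7, 7.25 and 61.5 CPM in wild-type 1, 2 and 3. The 3 genes highest in wild-type 3 were thus Hoxa13, Hoxb13 and Hoxd13, all those of group 13 with a wild-type count. The other counted Hox genes were highest in wild-type 1 or 2. Hoxa10 went the other way among wild-type libraries, at 62.4, 65.9 and 58.6 CPM, as did Hoxa11 at 10.5, 13.4 and 3.91 CPM in wild-type 1, 2 and 3. The part of position along the colon in the channel values was not tested.

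**Figure D5:**
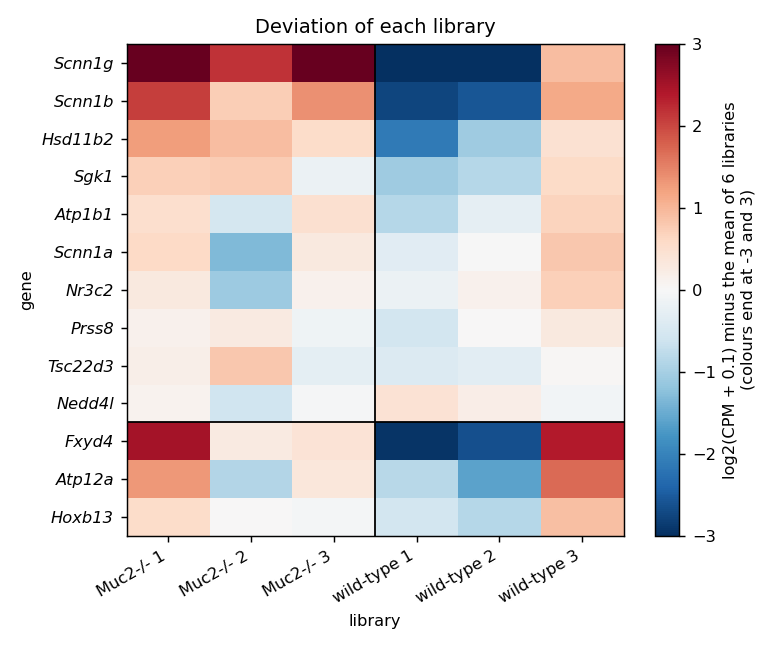
Log2(CPM + 0.1) of each gene less its mean over the 6 libraries, with the 10 genes above the line and Fxyd4, Atp12a and Hoxb13 below it. Scnn1g, Scnn1b, Hsd11b2, Fxyd4 and Hoxb13 share low values (blue) in wild-type 1 and 2 and high values (red) in wild-type 3. Sgk1, Atp1b1 and Atp12a show the same pattern. Fxyd4 and Hoxb13 were chosen after the values were seen, and only 3 of 13 posterior Hox genes with a wild-type count were highest in wild-type 3.

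The profiles of the subunits over the 6 libraries differed from each other. Scnn1a ran closest to Nr3c2 among the 10 genes (Pearson r = 0.98 of log2 CPM, as a description) and had r = 0.31 with Scnn1b and 0.17 with Scnn1g. Scnn1b and Scnn1g ran with Hsd11b2 (r = 0.95 for each) and with Sgk1 (0.88 and 0.84). The correlations share libraries, depth and 2 genotypes, and with 6 points many genes reach high values. The 5 tested genes closest to Scnn1a were Akap1, Slc10a5, Vps35l, Rasd1 and Sort1 (r from 0.991 to 0.997). Those closest to Scnn1b were Manba, Gmeb1, Khdc1a, Sh3d21 and Fer1l6 (0.993 to 0.997), and those closest to Scnn1g were Vill, Eif2s2, Etnppl, Sgsm3 and Frrs1 (0.994 to 0.997).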

How the data were processed

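Raw counts per gene and FPKM were deposited by the authors as whole-series tables. The submitters' processing notes name mm10, featureCounts version 1.5.0-p3 and DESeq2 version 1.20.0, besides HISAT2 version 2.0.5 and StringTie version 1.3.3b. The deposited FPKM matched count over gene length and total, times a library factor of 0.860 to 1.14. Of 52081 identifiers shared with GENCODE M21, 51497 had equal width and 1494 equal coordinates, so the files use another assembly than mm10. Rows lacking a gene name held 0.144% to 0.192% of counts. Whether counting used strand is not stated there.

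Groups and replicate numbers came from the titles. The main test was edgeR 4.0.16 (R 4.3.3) with TMM factors, its default filter (minimum count 10, total 15) and genotype alone. The SE is the log2 fold change over the root of F. Log2 CPM used a prior count of 2. Alternatives were DESeq2 1.42.0, limma 3.58.1 on voom weights or on log2(FPKM + 1) and log2(FPKM + 0.1), other scaling and filters, a replicate block and omission of each library. The procedure was tested on simulated data. Chi-square per degree of freedom between replicates was 26.7 to 167, so all counted separately.

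The members and lists were chosen with earlier results of these data known. Besides the 10 genes, each list contributed called genes (up to 4 each way), the 2 with the highest mean and the 2 with the smallest p, and each subunit its 5 most similar genes. Of the named genes and the 7 ratios, 1 gene and the ratio that uses it are not reported here. Promoter sequences are from RefSeq, GRCm38.p6.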

Additional observations from a re-analysis of the deposited data

How the results depend on the processing

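With 3 libraries a group and total counts of 16395432 to 20336459, Scnn1g in wild-type 1 and 2 rests on 3 counts, so its fold is limited by depth there. Among the 10 genes edgeR called 0 higher and 0 lower, and so did the fits with RLE, upper-quartile or no composition factors, the stricter filter, DESeq2, limma-voom and limma on FPKM. No low-count filter gave 1 higher, and the replicate block gave 1 higher (Scnn1g in both, adjusted p 0.0379 and 0.0369; log2 fold change 5.23 under the block, which called 1.4% of all tested genes higher). Leaving out each library in turn gave 0 to 4 higher and 0 lower, with the 4 without wild-type 3, and 2 to 5 genes higher and 0 to 1 lower without overlap of the groups, where 16.6% to 21.2% of all tested genes were higher and 17.2% to 25.5% lower without overlap.

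Of the listed pathway genes edgeR called 0, DESeq2 called 6 higher and 10 lower, no low-count filter 2 and 5, and the replicate block 1 and 4. Over all genes DESeq2 called 3.23% higher and 6.59% lower. The fit with no low-count filter called 1.43% and 3.04%, and the replicate block 1.4% and 2.78%. Leaving out each library in turn gave 0 to 4 higher and 0 to 6 lower. The most came without wild-type 3, a fit that called 1.62% of all tested genes higher and 5.68% lower. Whether the replicate numbers pair the libraries cannot be decided from 3 libraries a group. The deviations of same-numbered libraries correlated at 0.0937, 0.281 and 0.0606. Muc2-/- 1 and 2 correlated best with their own number, and Muc2-/- 3 with wild-type 1 (0.0636). The replicate block called 4.18% of all tested genes in either direction, against 0.124% in the main fit.

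The sign turned for values near 0, and the cause was not tested. Scnn1a ranged from -0.53 to 0.24, Prss8 from -0.066 to 0.34 and Atp1b1 from -0.050 to 0.77 when single libraries were left out, and Prss8 was -0.049 without composition factors. Relative to epithelial markers Sgk1 ranged from -0.18 to 0.41, and with surface colonocyte markers Prss8 was 0.11, Tsc22d3 0.40 and Atp1b1 0.255. The median of the pump list was -1.02, -0.13 with no low-count filter, -0.11 in DESeq2, -0.02 on log2(FPKM + 1), -0.49 on filtered FPKM, and -0.91 to -0.20 when single libraries were left out. Each fit took this median over the listed genes that it held, so the genes can differ between fits. The main fit held 11 of the 13, with 5 positive and 6 negative log2 fold changes, so a gene more or less can move the median. With a prior count of 0.5, no ratio between members turned.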
